A study of Homo sapiens with 10 samples.

Results

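PHOX2A, HAND2, GATA2, GATA3, ISL1, TBX2, INSM1 and SOX11 are transcription factor genes of the adrenergic, or sympathoadrenal, state of neuroblastoma. Their transcript 3′ ends were described in the human neuroblastoma line IMR-32 from 1 deposited list of poly(A) 3′-seq peaks. All peaks were taken whose summit lay in a GENCODE 44 gene body or up to 600 bp past its 3′ end, and this gave 44 peaks of the 178837 in the list. Every one of the 8 genes held at least 2 of them.

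The list was made from 10 libraries, and the cells of all of them had been transduced with a pLKO.1 lentivirus and selected with puromycin. Of these libraries, 4 came from cells with an shRNA against CDK12 (sh22 or sh98), 4 from cells with an shRNA against CDK13 (sh701 or sh704) and 2 from control cells with an shRNA against GFP. Each shRNA was used in biological duplicates of a single cell line. CDK12 and CDK13 are kinases of the RNA polymerase II tail, and the experiment asked how their loss affects where transcripts are cleaved and polyadenylated. The authors merged all libraries before peaks were called, so the groups cannot be told apart, and no gene has a value per library or a knockdown effect here.

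Sympathetic neuroblasts and adrenal chromaffin cells arise from the neural crest under a small set of transcription factors that sustain each other's expression. In neuroblastoma, these factors occupy shared enhancers and form what is called the core regulatory circuitry of the adrenergic state, as opposed to the mesenchymal state. A messenger RNA ends where the nascent transcript is cut, usually a short distance downstream of a hexamer such as AATAAA, and a gene with several such sites makes messages with different 3′ untranslated regions (UTRs). A poly(A) signal inside an intron can end a transcript early and shorten the protein.

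In poly(A) 3′-seq, oligo(dT)-primed reads start at or next to the cleavage site, so the 3′ edge of a peak, read on the strand of its gene, was taken as its most downstream site. Each peak has a fold enrichment over local background and a −log10 q-value in the list. The pileup, which is the number of reads stacked at the summit after extension to 100 bp, was recovered from the fold and the p-value. Its 95% Poisson interval covers counting error only. Reads of a gene that start at the edge reach back 100 bp at most. Where the summit lies further from the edge, the pileup does not count reads that start at the edge. This holds for the strongest peaks of PHOX2A, HAND2, ISL1, TBX2, INSM1 and SOX11 and for several weaker ones. Positions of these peaks are nevertheless given by the edge unless the summit is named. The highest pileup of the whole list was 200, reached by 2 peaks, and 17 peaks were above 100. With reads of 100 bp, 1 read kept per start position and strand can stack no higher than 200, and a pileup made in this way is a compressed measure of abundance. The Poisson intervals do not take this ceiling into account and are approximate. One transcript gives 1 end, so pileups were compared between genes with no correction for length.

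The sequences at the annotated 3′ ends are shown first, since they carry the signal that a peak edge is compared with. The 12 hexamers searched on the strand of each gene were the canonical AATAAA and ATTAAA and 10 variants. Those that differ early in the motif were ACTAAA as well as AGTAAA and AAGAAA. Those with another first base were CATAAA as well as GATAAA and TATAAA, and those that differ further on were AATGAA as well as AATAGA and also AATACA and AATATA. They can overlap each other. AATAAA lay within 40 bases before the end of the main transcript in 7 of the 8 genes, at 24 bases in PHOX2A and SOX11, 25 in GATA3, 22 in INSM1, 20 in TBX2, 19 in GATA2 and 5 in ISL1. Across all 20033 protein-coding genes, 76.2% had AATAAA or ATTAAA in that window, so the 8 genes were near the common share. HAND2 had neither. The only hexamer within 100 bp upstream of the edge of its end peak was AAGAAA, 10 bases before that edge. It lies in an A-rich stretch and runs past the annotated end, and whether it acts as a signal was not tested. The lines below are 30 bases of GRCh38, 5′ to 3′ on the gene's strand, with the hexamer in capitals.
PHOX2A, chr11:72239076-72239105, minus strand: tccaAATAAAacttaatttattgaagacat
HAND2, chr4:173526070-173526099, minus strand: atccAAGAAAaaaaaaaggaaaaagaaaag
GATA2, chr3:128479421-128479450, minus strand: gaatAATAAAatactttttgtgaatgcccc
GATA3, chr10:8075169-8075198, plus strand: taatAATAAAgtgaaaatattttaaaacta
ISL1, chr5:51394721-51394750, plus strand: aataAATAAAcacagtgatccagggtccct
TBX2, chr17:61409442-61409471, plus strand: aaacAATAAAacgctagaaagcgaagtgaa
INSM1, chr20:20370923-20370952, plus strand: ttcaAATAAAatattttcaaagtcaaagtg
SOX11, chr2:5701357-5701386, plus strand: ctctAATAAAattgtgtgatcaatcttcac

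Peaks ended at these annotated sites to within a few bases. The 3′ edge of a peak lay exactly at the end of the main transcript in TBX2 and INSM1, 3 bp past it in GATA3, 6 bp in HAND2, 11 bp in ISL1 and 17 bp in GATA2, and it was 4 bp short of it in SOX11. In PHOX2A the nearest edge was 238 bp past the end, in a wide peak whose summit was 20 bp before the end. An edge within 20 bp of the main end was thus found in 7 of 8 genes, compared with 67.2% of the 13761 protein-coding genes with a terminal peak. A terminal peak is one with its summit from 200 bp before to 600 bp after any annotated transcript end of its gene. All 8 genes had one, whereas 68.7% of protein-coding genes did.

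The 44 peaks were higher than most peaks of protein-coding genes. Their pileup ranged from 5 to 114 with a median of 25.5, beside a median of 10 over the 162226 peak and gene pairs of all protein-coding genes. The median was 31 in the 15 terminal peaks of the 8 genes and 17 in all terminal pairs, 31 in the 11 other exonic peaks and 13 in all exonic pairs, and 18.5 in the 18 intronic peaks and 8 in all intronic pairs. A −log10 q of at least 20 was reached by 14 of the 44 peaks (31.8%, 95% Wilson interval 20% to 46.6%), against 8.26% of all pairs. Of these 14 peaks, 13 lay in the 3′ UTR of the main transcript, a share that was not computed over all pairs. Peaks of 1 gene share their transcripts and are not independent, and no test was made of these shares.

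**Figure D1:**
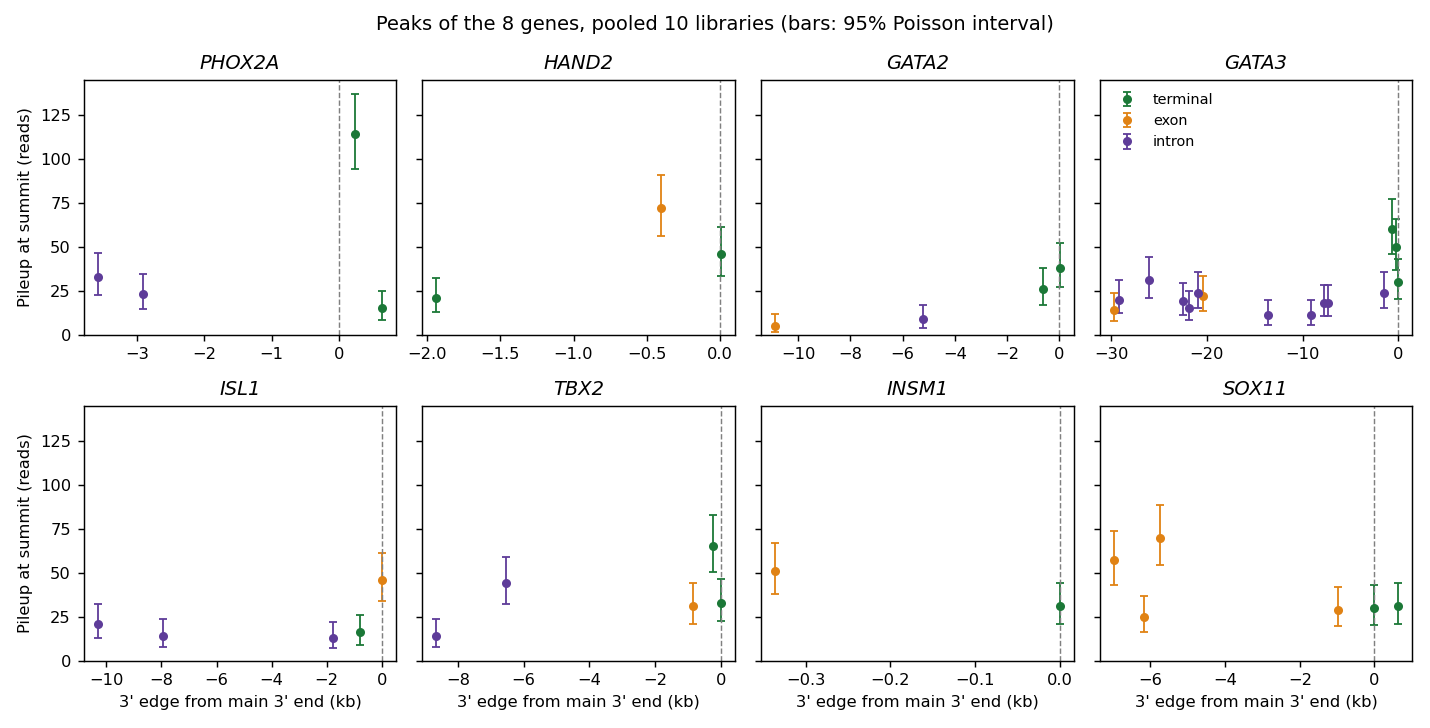
Pileup at the summit (reads, y axis) against the distance of the peak's 3′ edge from the end of the main transcript (kb, x axis, negative is upstream, a scale per gene) for the 44 peaks, coloured by class, with 95% Poisson intervals as bars. The PHOX2A peak at the gene's end stands highest at 114, and the GATA3 panel holds 15 peaks over nearly 30 kb.

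PHOX2A, HAND2 and ISL1 encode homeodomain, basic helix-loop-helix and LIM-homeodomain factors of sympathetic neuron development. PHOX2A, which activates genes of noradrenaline synthesis, had the strongest peak of the 8 genes. Its pileup was 114 (95% Poisson interval 94.0 to 137), its fold was 21.8 and its −log10 q was 110. No other peak of a protein-coding gene was higher. PHOX2A (minus strand, chr11:72239077-72245664) and INPPL1 (plus strand), which encodes an inositol phosphatase, converge there and overlap by 71 bp, and the peak of 377 bp covers both ends. INPPL1 carries its own AATAAA 27 bases before its end. With 1 read kept per position and strand, no more than 100 reads of 1 strand can stack, so a pileup of 114 needs reads of both strands. The list has no strand, and the parts of the 2 genes in this peak cannot be told apart.

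The INPPL1 end is printed because its hexamer lies under the same peak as that of PHOX2A, on the other strand.
INPPL1, chr11:72239116-72239145, plus strand: cttcAATAAAttacaagtttttcaaagaaa

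The remaining PHOX2A peaks were far lower. A peak past the end, also within INPPL1, had a pileup of 15 and a −log10 q of 2.88, among the lowest of the 44. Its interval held AATAAA 2 times. Intron 1, after codon 72 of 284, held 2 peaks with pileups of 33 (22.7 to 46.3) and 23 (14.6 to 34.5), and no hexamer lay within 100 bp upstream of either edge. The stronger of them had a fold of 6.64 and a −log10 q of 16.0, and 99.3% of all intronic pairs had a lower pileup. A run of A lay shortly before its edge, and 6 of the 10 bases past the edge were A.

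HAND2, a basic helix-loop-helix factor of noradrenergic differentiation, had its strongest peak inside the 3′ UTR. This peak had a pileup of 72 (56.3 to 90.7), a fold of 9.14 and a −log10 q of 42.4. It was the widest of the 44, at 661 bp, held 8 hexamers and ended 406 bp before the end of the main transcript, after 65.8% of the UTR. The peak at the end itself had a pileup of 46 (33.7 to 61.4) and a −log10 q of 19.4, and the 2 Poisson intervals overlapped. Its downstream sequence was A-rich, which is used here for at least 7 A in the 10 genomic bases past the edge. Another, weak peak, with a pileup of 21 and a −log10 q of 2.86, lay 52 bp past the end of a shorter HAND2 transcript and within HAND2-AS1 on the opposite strand. On the main transcript this weak peak lay in intron 1, after codon 185 of 217, with ATTAAA 14 bases upstream of its edge. HAND2 stood in the densest surroundings of the 8 genes. Between 692 and 740 reads lay in the 10 kb around its summits, and fewer were counted at 99.9% of terminal pairs.

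ISL1, a LIM-homeodomain factor needed for the maturation of sympathetic neurons, had a dominant peak, 415 bp wide, across the end of its main transcript. The pileup was 46 (33.7 to 61.4), the fold 14.5 and the −log10 q 39.4. Its edge was 11 bp past the end, but its summit was 326 bp before it, so it is counted as exonic and not as terminal. AATAAA lay 31 bases past the summit, shortly before a run of A, whereas 1 of the 10 bases past the edge was A. A second 3′ UTR peak, terminal by a shorter transcript and A-rich downstream, reached 16 (9.15 to 26.0), and the 2 intervals did not overlap. Introns 1, 2 and 5 held a peak each, with pileups from 13 to 21. The strongest, in intron 1 after codon 9 of 349, had a −log10 q of 16.4, no hexamer upstream and 8 A of 10 downstream.

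GATA2 and GATA3 encode zinc finger factors, of which GATA3 is required for noradrenergic differentiation of the sympathetic lineage. GATA2 had a simple pattern. Both of its strong peaks lay in the 3′ UTR, with AATAAA upstream of each edge and few A downstream. The peak at the end had a pileup of 38 (26.9 to 52.2), a fold of 17.6 and a −log10 q of 39.2, and the peak at 61.1% of the UTR had 26 (17.0 to 38.1), a fold of 12.1 and a −log10 q of 22.5, so their intervals overlapped. GATA2 also had the sparsest surroundings of the 8 genes, with 36 to 123 reads in 10 kb. Its strongest peak outside the terminal windows, in intron 3 after codon 290 of 480, had a pileup of 9 (4.12 to 17.1), a fold of 5.62 and a −log10 q of 5.49. Its 10 downstream bases were all A, within a stretch of 25 bases with no more than 3 other than A. No hexamer lay upstream of its edge. The paper's methods discard peaks with such a stretch and no hexamer as false positives, and the list used here still holds this one. A peak of pileup 5, in intron 1 of the main transcript but counted as exonic by another GATA2 transcript, overlapped GATA2-AS1.

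GATA3 had the most peaks, 15, of which 10 were intronic and 8 were A-rich downstream. Among 1818 protein-coding genes with a terminal peak and a length within 1.25 times that of GATA3, the median was 6 peaks and 0.220% had 15 or more. For intronic peaks, the median was 3 and 0.550% had 10 or more. Its 3 terminal peaks divided the 3′ UTR of 1175 bp, with edges after 43.1%, 80.9% and 100.3% of it. Their pileups were 60 (45.8 to 77.2), 50 (37.1 to 65.9) and 30 (20.2 to 42.8), and their −log10 q values were 46.4, 34.9 and 15.6. The strongest was thus the most upstream site, its interval did not overlap that of the site at the end, and 9 of 10 bases past its edge were A.

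The peaks of GATA3 outside the 3′ UTR were weaker. Upstream of the start of the main transcript, in a longer annotated transcript, lay 6 peaks with pileups from 14 to 31, and 2 of these overlapped both the antisense GATA3-AS1 and an unnamed long noncoding RNA gene on the strand of GATA3, so that reads of these genes cannot be told apart. The strongest of the 6 had a pileup of 31 (21.1 to 44), a fold of 8.10, a −log10 q of 18.2 and 9 A of 10 downstream. Introns 3, 4 and 5 held 5 peaks with pileups from 11 to 24, after codons 259, 308 and 350 of 444. A peak of pileup 22 lay in the 5′ UTR, before a run of 10 A.

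TBX2 encodes a T-box transcriptional repressor. It had 4 peaks with a −log10 q of at least 20, more than any other of the 8 genes. Its strongest peak, in the 3′ UTR 232 bp before the main end and 110 bp past the end of another transcript, had a pileup of 65 (50.2 to 82.9), a fold of 19.0 and a −log10 q of 62.4. The peaks at the main end and at 13% of the UTR had pileups of 33 (22.7 to 46.3) and 31 (21.1 to 44), both below the interval of the strongest. Their −log10 q values were 22.3 and 20.6, and both had AATAAA upstream of the edge.

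TBX2 also had the strongest intronic peak of the 8 genes. It lay in intron 2, after codon 221 of 712, and had a pileup of 44 (32.0 to 59.1), a fold of 15.3 and a −log10 q of 39.5. A lower pileup was found in 99.8% of all intronic pairs. On the TBX2 strand, AAGAAA lay 63 bases upstream of the edge and an AG repeat followed it, and on the opposite strand 7 of the 10 bases past the other edge were A. All 5 TBX2 peaks lay within TBX2-AS1, an antisense long noncoding RNA, and reads of TBX2 and of TBX2-AS1 cannot be told apart. The other intronic peak, in intron 1, had a pileup of 14 (7.65 to 23.5).

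INSM1 and SOX11 have no intron. INSM1, a zinc finger factor of neuroendocrine cells, had 2 peaks. The peak inside the 3′ UTR, 455 bp wide and ending after 70.8% of it, had a pileup of 51 (38.0 to 67.1), a fold of 14.0 and a −log10 q of 42.0, with AATAAA 11 bases before its summit. The peak at the end had 31 (21.1 to 44) and a −log10 q of 19.7. The interior peak was higher, but the intervals overlapped.

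SOX11, an SRY-related factor of developing neurons, has the longest 3′ UTR of the 8 genes, 7338 bp. Its strongest peaks lay near the stop codon. The highest, ending 1589 bp after the stop codon or 21.7% along the UTR, had a pileup of 70 (54.6 to 88.4), a fold of 10.4 and a −log10 q of 45.3. The next, ending 358 bp after the stop codon, had 57 (43.2 to 73.9), a fold of 9.27 and a −log10 q of 34.6. The peak at the annotated end had 30 (20.2 to 42.8) and a −log10 q of 14.4, and its interval lay below that of both proximal peaks. The higher proximal peak had AATAAA 22 bases upstream of its edge and another 42 bases past its summit. The lower held no hexamer within 100 bp upstream of its edge. The other 3 peaks had pileups of 25, 29 and 31, and the 3 most distal of the 6 also lay in an unnamed long noncoding RNA gene on the same strand.

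These interior 3′ UTR sequences are printed because they lie within the strongest peak of their gene. Each line has 30 bases of GRCh38 on the gene's strand with an AATAAA in capitals. It lies near the summit in HAND2, TBX2 and INSM1. In SOX11 it is the last before the edge, and reads of 100 bp from that edge do not reach the summit. Another AATAAA lies 42 bases past the SOX11 summit.
HAND2, chr4:173526612-173526641, minus strand: attcAATAAAccactgtgttttttttttac
TBX2, chr17:61409096-61409125, plus strand: atgaAATAAAtggtaatttgtgtaaataag
INSM1, chr20:20370243-20370272, plus strand: gaggAATAAAtgcctttatatttcacaggc
SOX11, chr2:5695610-5695639, plus strand: ttttAATAAAtcagctggaactgatagaaa

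**Figure D2:**
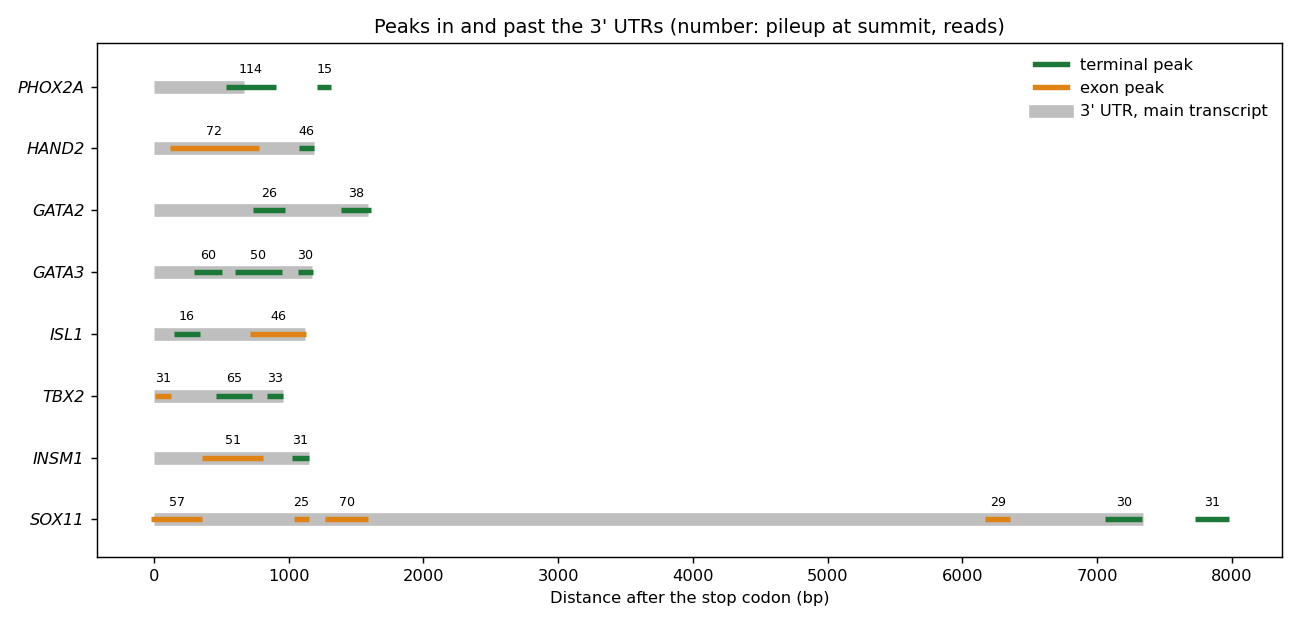
Positions of the peaks in and past the 3′ UTR of the main transcript of each gene (bp after the stop codon, x axis), with the UTR as a grey bar and each peak as a coloured bar carrying its pileup. The highest pileup stands upstream of the last UTR peak in HAND2, GATA3, TBX2, INSM1 and SOX11.

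Across the 8 genes, 20 peaks lay in the 3′ UTR of the main transcript and held 66.2% of the summed pileup of 1390. None lay in the coding sequence of a main transcript, and 7 of the 8 genes had at least 2 peaks in the UTR. The matching shares over all protein-coding genes were not computed, so these counts describe the 8 genes alone. In 4 of the 8 genes (HAND2, ISL1, INSM1 and SOX11) the strongest peak lay in the UTR but outside the terminal windows. The same held for 10.4% of the 13236 protein-coding genes with at least 2 peaks. For ISL1 the peak edge was 11 bp past the annotated end, but the summit was 326 bp before that end. The strongest peaks of the 8 genes stood in the order PHOX2A (114), HAND2 (72), SOX11 (70), TBX2 (65), GATA3 (60), INSM1 (51), ISL1 (46) and GATA2 (38). The interval of PHOX2A did not overlap that of any other gene, but its peak also covers the end of INPPL1 and is not a value of PHOX2A alone. From HAND2 down, each interval overlapped that of the next.

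Intronic peaks were found in 5 of the 6 genes that have an intron, whereas 76.7% of the protein-coding genes that had an intron as well as a terminal peak held one. HAND2 had none. The 18 intronic peaks were PHOX2A 2, GATA2 1, GATA3 10, ISL1 3 and TBX2 2, and their pileups ranged from 9 to 44. The GATA2 peak is of the kind that the paper's methods discard as a false positive. A −log10 q of at least 20 was reached by 1 of the 18 (5.56%, 0.988% to 25.8%), and by 2.72% of all intronic pairs.

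A hexamer lay within 100 bp upstream of the edge in 29 of the 44 peaks (65.9%, 51.1% to 78.1%), and in 56.3% of all pairs. AATAAA or ATTAAA did so in 18 (40.9%, 27.7% to 55.6%), and in 30.5% of all pairs. Both background shares lay inside the Wilson intervals. Among terminal peaks the hexamer share was 13 of 15 (86.7%, 62.1% to 96.3%), beside 77.7% of all terminal pairs. Among the other exonic peaks it was 6 of 11 (54.5%, 28.0% to 78.7%), beside 64.2% of all exonic pairs, and among intronic peaks it was 10 of 18 (55.6%, 33.7% to 75.4%), beside 49.5% of all intronic pairs. The 3 Wilson intervals overlapped. They treat peaks as independent, although GATA3 alone gave 15 of the 44 peaks and 10 of the 18 intronic ones, and no test was made.

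A smaller share of the 44 edges than of all pairs of protein-coding genes was A-rich downstream. At least 7 of the 10 bases, in 1 run or not, were A past 14 edges (31.8%, 20% to 46.6%), compared with 54.4% of all pairs. The terminal share of the 44 peaks was 34.1% (21.9% to 48.9%), against 18.8% of all pairs, and the intronic share was 40.9% (27.7% to 55.6%), against 70.9%. Within classes the A-rich share was 3 of 15 among terminal peaks and 20% of all terminal pairs, 3 of 11 among exonic peaks and 31.5% of all exonic pairs, and 8 of 18 (44.4%, 24.6% to 66.3%) among intronic peaks and 66.8% of all intronic pairs. GATA3 held 8 of the 14 A-rich peaks, and peaks of 1 gene are not independent. The 14 A-rich peaks had a median pileup of 18.5, and the 30 others had 30.5, beside 8 and 12 in the A-rich and other pairs of all protein-coding genes. Oligo(dT) can prime on genomic A runs of a transcript as well as on poly(A) tails, and its part in these peaks was not tested.

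The A-rich sites are shown at 2 edges, with the 10 downstream bases in capitals. They are the GATA2 peak in intron 3 and the GATA3 peak in the 5′ UTR. The AG repeat at the TBX2 peak in intron 2 is given for comparison.
GATA2, intron 3, chr3:128484652-128484681, minus strand: tccagatggtcttttaattgAAAAAAAAAA
GATA3, 5′ UTR, chr10:8054728-8054757, plus strand: agaatgcattccctgtaaaaAAAAAAAAAA
TBX2, intron 2, chr17:61402915-61402944, plus strand: aagaggaagaaccgatagagAGAGAGAGAG

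**Figure D3:**
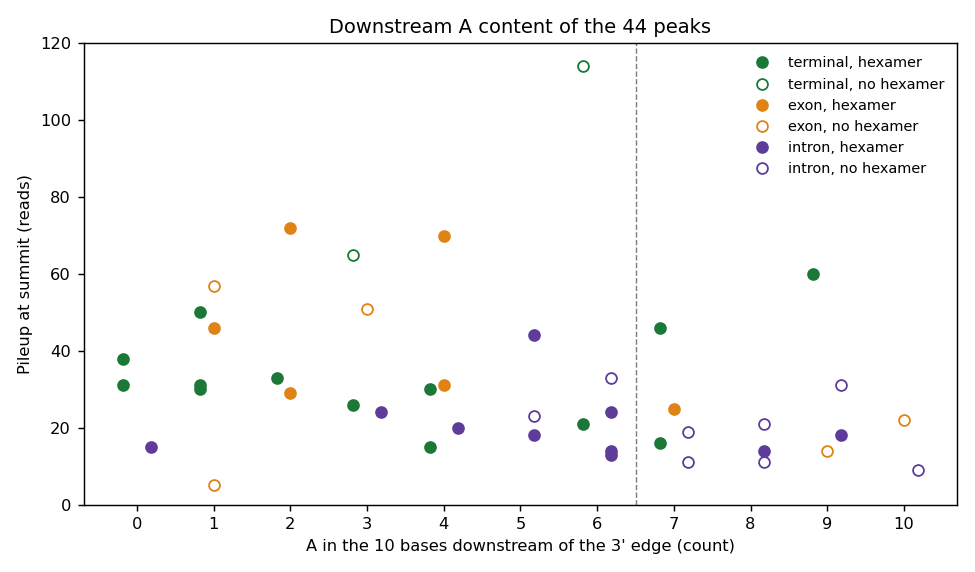
Pileup at the summit (reads, y axis) against the number of A in the 10 bases past the 3′ edge (x axis) for the 44 peaks, coloured by class, filled where a hexamer lies within 100 bp upstream. Right of the dashed line, 14 peaks have at least 7 A, and 1 of them, in the GATA3 3′ UTR with a pileup of 60, has a −log10 q of at least 20.

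A −log10 q of at least 20 was thus reached by 1 of the 14 A-rich peaks and 13 of the 30 others, beside 2.66% of all A-rich pairs and 14.9% of all other pairs.

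The genes were then ranked among the 13761 protein-coding genes with a terminal peak by the summed pileup of their terminal peaks. The sum was 140 for GATA3, 129 for PHOX2A, 98 for TBX2, 67 for HAND2, 64 for GATA2, 61 for SOX11, 31 for INSM1 and 16 for ISL1, and the median of all ranked genes was 34. Lower sums were found in 98.2% of genes for GATA3, 97.5% for PHOX2A and 93.0% for TBX2, but in 44.7% for INSM1 and 18.9% for ISL1. Reads of INPPL1 in the PHOX2A sum and of TBX2-AS1 in the TBX2 sum cannot be told apart. The median over the 8 genes was 80.5%. The strongest peaks of INSM1 and ISL1 were not terminal and are not in these sums. With the other 3′ UTR peaks added, the shares were 81.4% for INSM1, 68.5% for ISL1 and 99.7% for SOX11, whose sum was 242.

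The reads in the 10 kb around the terminal summits gave a wider measure, which takes in more start positions than a summit pileup. These reads were recovered from the background value of each peak. If repeated reads of a start position and strand were dropped, abundant sites are limited in this window too. The measure is then also compressed. HAND2 had 740, PHOX2A 427, SOX11 379, GATA3 363, INSM1 260, TBX2 251, ISL1 228 and GATA2 123, beside a median of 96 over all terminal pairs. HAND2 then ranked above 99.9% of genes and GATA2 above 59.2%. These windows hold reads of neighbouring and antisense genes too, INPPL1 and TBX2-AS1 among them.

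**Figure D4:**
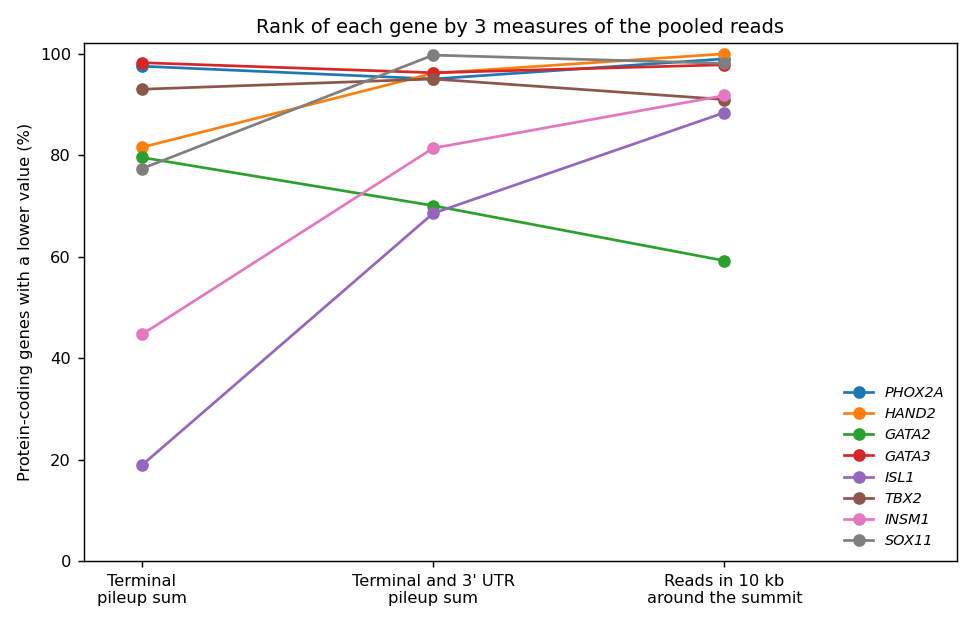
Share of ranked protein-coding genes with a lower value (%, y axis) for each of the 8 genes by terminal pileup sum, by terminal and 3′ UTR pileup sum and by reads in 10 kb (x axis), joined by lines. ISL1 rises from 18.9% to 88.4% and GATA2 falls from 79.5% to 59.2%.

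Related genes were described by the same terminal sum. Of 15 other transcription factors of the adrenergic state, 14 had a terminal peak (all but SOX4), with a median rank above 54.8% of genes, and SATB1, KLF7 and ZNF536 stood highest. Of 12 close paralogs of the 8 genes, 5 had one, with a median of 22.5% and with TBX3, HAND1 and ISL2 highest, and GATA1, GATA4, GATA5, GATA6, TBX5, INSM2 and SOX4 had none. SOX4 is in both lists. Of 12 transcription factors of the mesenchymal state, 10 had one, with a median of 31.5% and with SMAD3, FOSL1 and TWIST1 highest, and PRRX1 and RUNX2 had none. Thus the 8 genes had the highest median of these lists, which describes the lists and was not tested. The genes and lists were chosen with earlier results of these data known, and genes without a terminal peak are not in the medians.

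The cell identity was checked with marker genes. Adrenergic markers had a terminal peak in 7 of 8 genes, with STMN2, CHGB and CHGA highest and SLC18A2 without one, and TH, the rate-limiting enzyme of catecholamine synthesis, had a terminal pileup of 21. Their median rank was 27.9%, with a range from 11.6% to 91.9%. Mesenchymal markers had a terminal peak in 6 of 6 genes, with CD44, FN1 and VIM highest, a median of 40.6% and a range from 15.1% to 70.7%. The marker genes of the adrenergic state therefore did not stand above those of the mesenchymal state by this measure. Haematopoietic markers had one in 1 of 4, KIT at 47.7%, and PTPRC, CD3E and TAL1 had no terminal peak.

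**Figure D5:**
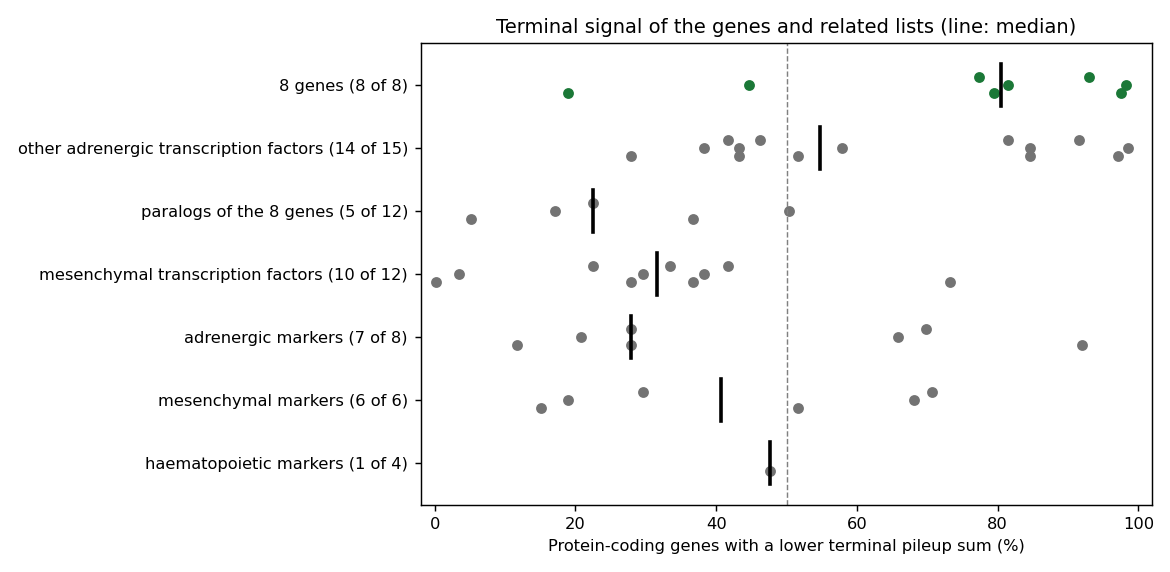
Share of ranked protein-coding genes with a lower terminal pileup sum (%, x axis) for the genes of each list (y axis, number with a terminal peak of number in the list), 1 point per gene and a black line at the list's median. The 8 genes have their median at 80.5%, and the dashed line marks 50%.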

How the data were processed

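Poly(A) 3′-seq libraries (QuantSeq REV) of IMR-32 cells were used. Per the authors, single-end reads were trimmed and aligned by STAR 2.5.1b to GRCh38. The knockdown libraries came from separate batches that varied in sequence quality and depth, and the authors do not say which library was in which. For this reason they were reduced at random to the size of the smallest one. MACS2 2.1.1 was run on all 10 libraries merged. The deposited fold is a ratio, summit pileup over local background, each plus 1, and the deposited −log10 p-value and q-value test that pileup against that background. The list has no strand, no value per library and no library depth, so groups and replicates were not compared.

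Pileup and background were computed from the fold and p-value. Of 157050 backgrounds above the genome-wide value, 99.94% gave whole numbers of reads in 10 kb after multiplication by 100 (tolerance 0.05). That window assumes the default setting of MACS2. Summits were annotated with GENCODE 44 as terminal, exonic or intronic in that order, per gene. The main transcript is the canonical one. Hexamers were searched up to 100 bp upstream of the 3′ edge, and A counted in the 10 bases that follow it. Text names all 8 genes, the strongest peak of each, all with a −log10 q of at least 20 and the strongest outside the terminal windows. One list of marker genes and 1 sequence are not reported here. The genes and lists were chosen with earlier results of these data known. Steps were tested on simulated data. Tools were samtools 1.23.1 and, in Python 3.11.15, pysam 0.24.0, pandas 2.3.3, scipy 1.17.1, matplotlib 3.10.9 and numpy 2.4.6.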

Additional observations from a re-analysis of the deposited data

Results flagged for a closer look

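The list held 7 further peaks between 600 bp and 5 kb past the 3′ ends of the genes, outside the rule by which the 44 peaks were chosen. The 2 nearest enter only the count of 46 peaks made with a longer window past the ends. HAND2 had 3 of them, with summits 632, 3948 and 4561 bp past the 3′ boundary of the gene and pileups of 42, 20 and 34. That boundary, at 173524969, lies downstream of the end of the main HAND2 transcript, at 173526091, which is the end used above. One peak each followed ISL1 (3209 bp past, pileup 15), INSM1 (1600 bp, 18), SOX11 (3234 bp, 17) and TBX2 (4893 bp, 11). None lay in another annotated gene except the SOX11 one, which lay in a long noncoding RNA gene on the same strand. The first HAND2 peak had a fold of 4.89 and no hexamer upstream of its edge, and 5 of the other 6 had AATAAA or ATTAAA there.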

How the results depend on the processing

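No paired analysis was possible because each peak has 1 pooled value, and for the same reason no replicate could be left out. The number of peaks, 44, was 30 to 46 under every alternative, the lowest without the peaks at another gene. The strongest peak of all 8 genes was unchanged when ranked by fold or by −log10 q, and 4 to 6 genes held an intronic peak. The terminal share of 34.1% was 20.5% with 1 transcript per gene and 50% among peaks with a −log10 q of at least 20. The hexamer share of 65.9% was 25% upstream of the summit, 40.9% for AATAAA and ATTAAA alone and 79.5% anywhere in the interval. The A-rich share of 31.8% was 4.55% when 25 bases with no more than 3 other than A were required, and also 4.55% downstream of the summit. The median rank of 80.5% was 87.2% by the highest terminal pileup, 67.9% by the highest terminal −log10 q, 87.6% over 7 genes with a terminal window of 100 bp on each side, 95% with the other 3′ UTR peaks added and 94.8% by reads in 10 kb. The causes were not tested. The alternatives without peaks at another gene, with hexamers anywhere in the interval, with 3′ UTR peaks added and by reads in 10 kb were chosen after seeing the data.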
